A study of Mus musculus with 6 samples.

Results

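Axon guidance ligands and receptors are the secreted and membrane-bound cues, and the growth cone receptors for them, that steer axons during development and stay expressed in many adult neurons. Netrins attract axons through Dcc and neogenin and repel them through the Unc5 receptors, while Slits repel axons that carry Robo receptors. Semaphorins signal through plexins, with neuropilins as co-receptors for most class 3 semaphorins, and ephrins on one cell bind Eph receptors on another. In sensory neurons of the dorsal root ganglion (DRG), Sema3a is the classical repellent that collapses growth cones.

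The genes were chosen by symbol: semaphorins of classes 3 to 7, plexins A to D, neuropilins, EphA and EphB receptors, ephrins, Slits, Robos, netrins, netrin-Gs, Unc5 receptors, Dcc and Neo1, with at least 10 raw counts in at least 3 of the 6 libraries. Of 35976 listed genes, 73 matched by symbol and 71 met the count rule, 37 ligands and 34 receptors. Epha1, an EphA receptor, had 5, 14 and 15 counts in vehicle replicates 1, 2 and 3 and 0, 6 and 9 in the treated ones, and did not meet it. The antisense transcript Plxna4os1, which matched only by its symbol, had 0, 2 and 0 counts and 7, 7 and 7 counts, and did not meet it either.

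RNA was sequenced from cultured DRG neurons of adult wildtype C57BL/6 mice of both sexes, with the question of which genes respond to HC-HA/PTX3, a complex of heavy chain, hyaluronic acid and pentraxin 3 purified from human amniotic membrane. Treatment began 24 h after plating and lasted 24 h, with 15 µg/mL of HC-HA/PTX3 in 3 cultures and vehicle alone in the other 3. The authors deposited raw counts per gene from ribosomal RNA-depleted libraries, and CPM below are library-scaled counts (counts per 1e6, after TMM scaling). The vehicle libraries of replicates 1, 2 and 3 held 42516054, 42617496 and 54117547 counts in total, and the treated libraries 37998071, 37434266 and 38420247. A value of 1 CPM rested on 37.11 to 55.99 counts, and a count of 0 would allow up to 0.0536 to 0.0808 CPM, for counting error only. The labels do not say that the replicates came from separate animals or dissections, so p-values measure only the spread between these samples.

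Unc5a, Unc5b, Unc5c, Neo1 and the ligand Ntn1 fell, as did Slit2 and Slit3, the EphB receptors Ephb1 and Ephb2 and the ligand Efnb1. Sema3e and Efna1 rose, while Plxnd1, the receptor of Sema3e, fell. Sema3a, Sema6a, Epha2 and Plxnb3 fell too, and Epha10, Sema4d and Sema4f rose. All 71 genes were tested within the fit across 18277 genes (quasi-likelihood test of edgeR, p-values adjusted by Benjamini-Hochberg), in which the replicate number was a block and each treated culture was compared with the vehicle culture of the same number. "Fell" and "rose" are used below for genes with an adjusted p under 0.05, and "called" for those that also had an absolute log2 fold change over 0.5.

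Called lower were 6 of the 71 genes (8.45%), against 5.38% of all genes tested, and called higher were 3 (4.23%), against 3.32%. Neither order of shares held in every setting. After ComBat-seq, 4.23% of the 71 and 5.54% of all genes were called higher, and without replicate 2 these shares were 2.82% and 3.15%. Without replicate 3 the shares called lower were 4.23% and 4.26%. By the adjusted p alone, 20 of the 71 passed (28.2%), against 19.2% of all genes tested in either direction. Of these, 15 were lower (21.1% of the 71, against 11.5% of all genes tested) and 5 higher (7.04%, against 7.67%). Each of the 9 called genes moved one way in all 3 pairs. Without replicate 3 the 6 lower calls became 3, without the treated culture of replicate 2 they became 10, and without replicate 1 the 3 higher calls became 1, when the calls among all genes dropped from 1591 to 878. The 3 treated cultures lay wholly above or below the 3 vehicle cultures for 10 of the 71 genes (14.1%), against 18.0% of all genes tested, and 7 of these 10 also passed the adjusted p. The calls rest on the pairing. Without the block, the same edgeR test called 0 of the 71 genes and 0 of the 18277 (0%), with 6 (8.45%) and 2089 (11.4%) at an unadjusted p under 0.05. With the block, DESeq2 called 1211 genes and limma-voom 1569, beside 1591 in edgeR. The median log2 fold change was -0.06 over the 71 genes and -0.01 over all genes tested, and the 51 that did not pass ranged from -0.63 for Epha8 to 1.07 for Robo3.

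**Figure D1:**
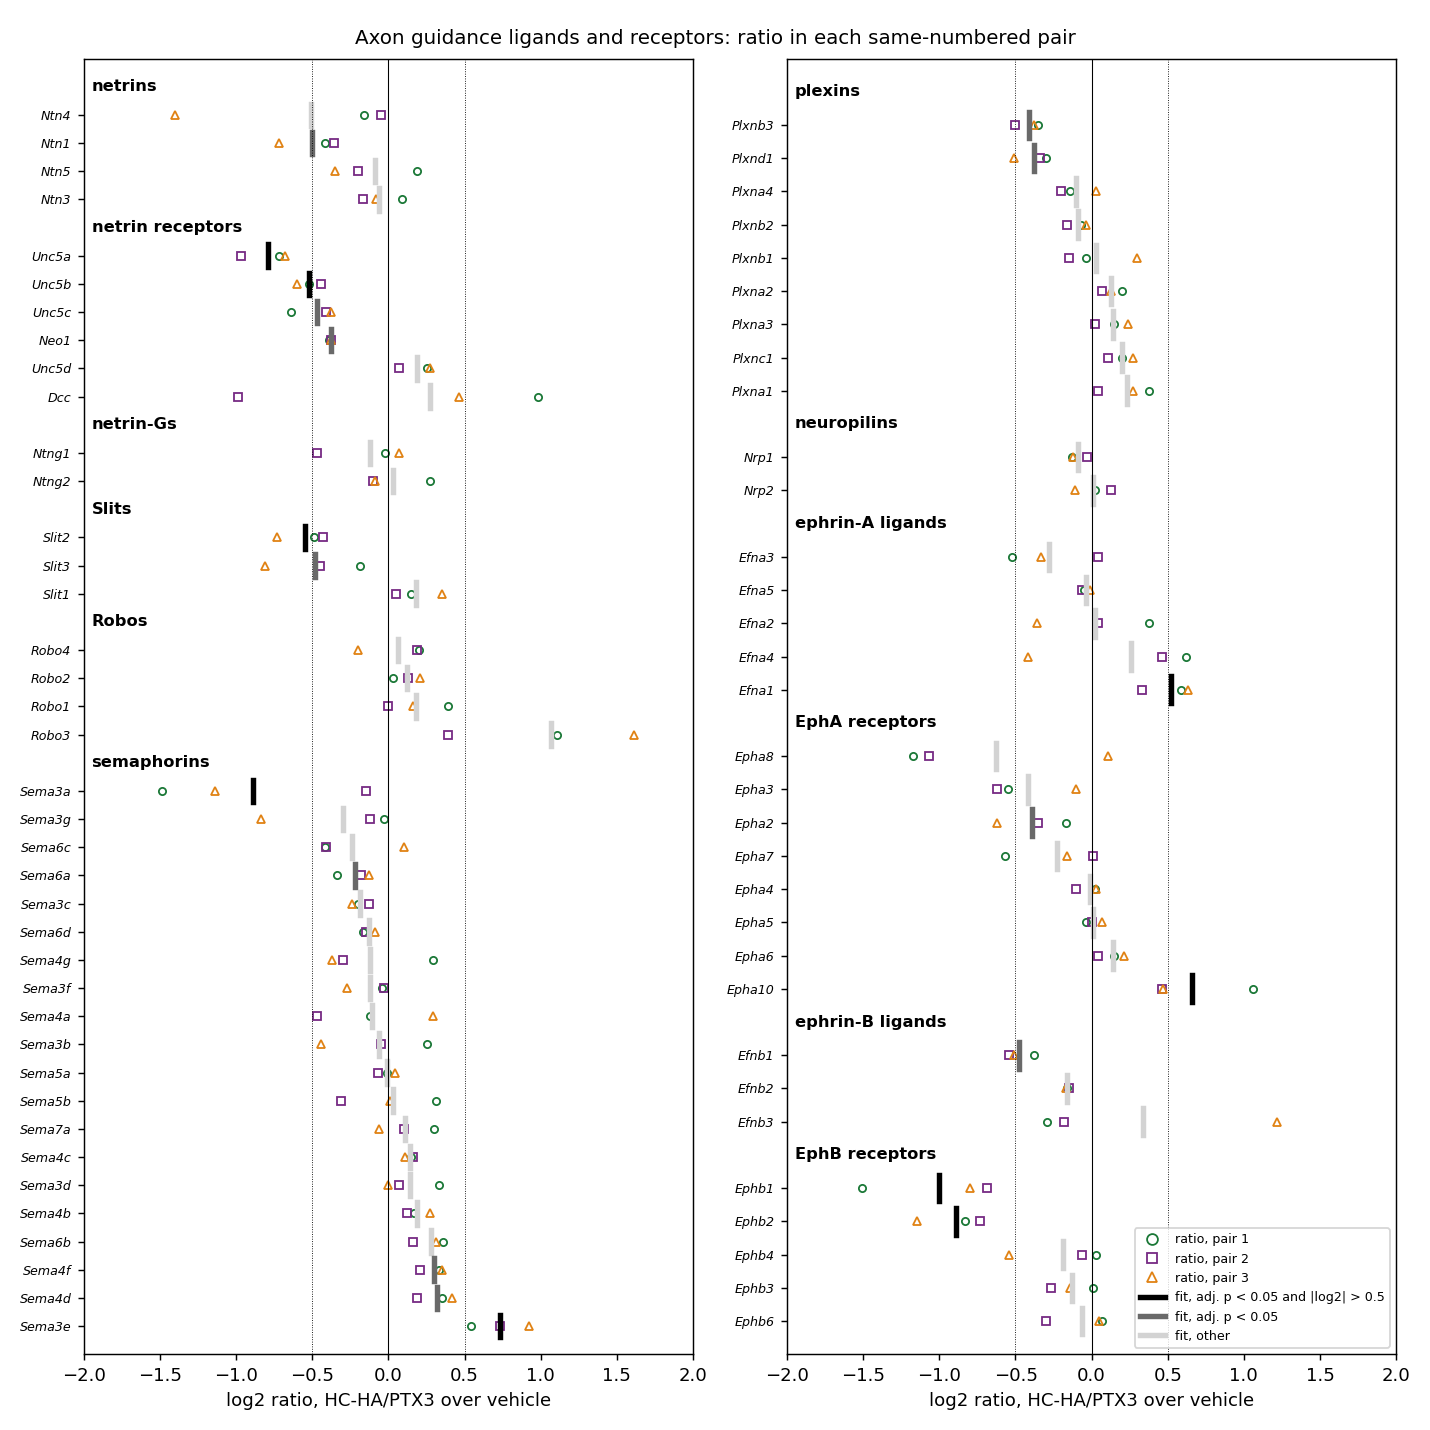
The plot shows the log2 ratio of TMM CPM, HC-HA/PTX3 over vehicle, in each of the 3 same-numbered pairs (open symbols) and the fitted log2 fold change (vertical bars) for the 71 genes, by family. Among the netrin receptors, Unc5a, Unc5b, Unc5c and Neo1 lie left of 0 in all 3 pairs, and Sema3e and Efna1 lie right of 0 in all 3.

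The cultures held other cell types beside neurons, and some of their markers moved with the treatment. In bulk RNA, fewer cells of a type and less RNA per cell cannot be told apart. Summed CPM of the 8 sensory neuron markers, of which Tubb3 was the most abundant, were 6275, 5592 and 6011 in the vehicle cultures and 6654, 6054 and 6729 in the treated ones, with 1 of 8 called, Tac1, higher. Those of the 6 markers of dividing cells, led by Mki67, were 694, 505 and 247 and then 237, 256 and 51.0, and 6 of 6 were called lower with a median log2 fold change of -1.5. Cell-cycle marker sums were lower in the treated culture of every pair, whereas the sum for neurons was higher in every pair.

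Summed CPM of the 6 fibroblast markers, led by Col3a1, were 2138, 2152 and 895 in the vehicle cultures and 1151, 1382 and 303 in the treated ones, with 3 of 6 called lower, all 3 collagens, while the other 3, Dcn, Lum and Pdgfra, did not pass. The 5 mural cell markers, led by Rgs5, summed to 489, 588 and 437 CPM and then 486, 555 and 294, and Acta2 was called lower, though not in DESeq2. The treated culture of replicate 3 was the lowest for both lists. The 7 satellite glia markers, led by Apoe, summed to 2175, 1259 and 505 CPM in the vehicle cultures and 2059.7, 1274 and 508 in the treated ones, with 0 of 7 called in edgeR, although 2 were lower and 1 higher by the adjusted p alone. Replicate 3 thus had the least satellite glia RNA in both groups, and the treated and vehicle sums differed little within a pair.

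The 6 Schwann cell markers, led by Ngfr, summed to 1973, 1689 and 1454 CPM and then 1904, 1567 and 1389. The 6 endothelial markers, led by Cdh5, summed to 235, 256 and 281 CPM and then 236, 284 and 257, and none of the 6 passed the adjusted p in edgeR. The 6 macrophage markers, led by Cd68, summed to 37.2, 47.1 and 38.1 CPM and then 32.1, 43.2 and 27.2, with C1qa called lower, though not after ComBat-seq or without replicate 1 or 3. No marker of any list was at 0 in all libraries. The part of these cell types in the changes of the guidance genes was not tested.

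**Figure D2:**
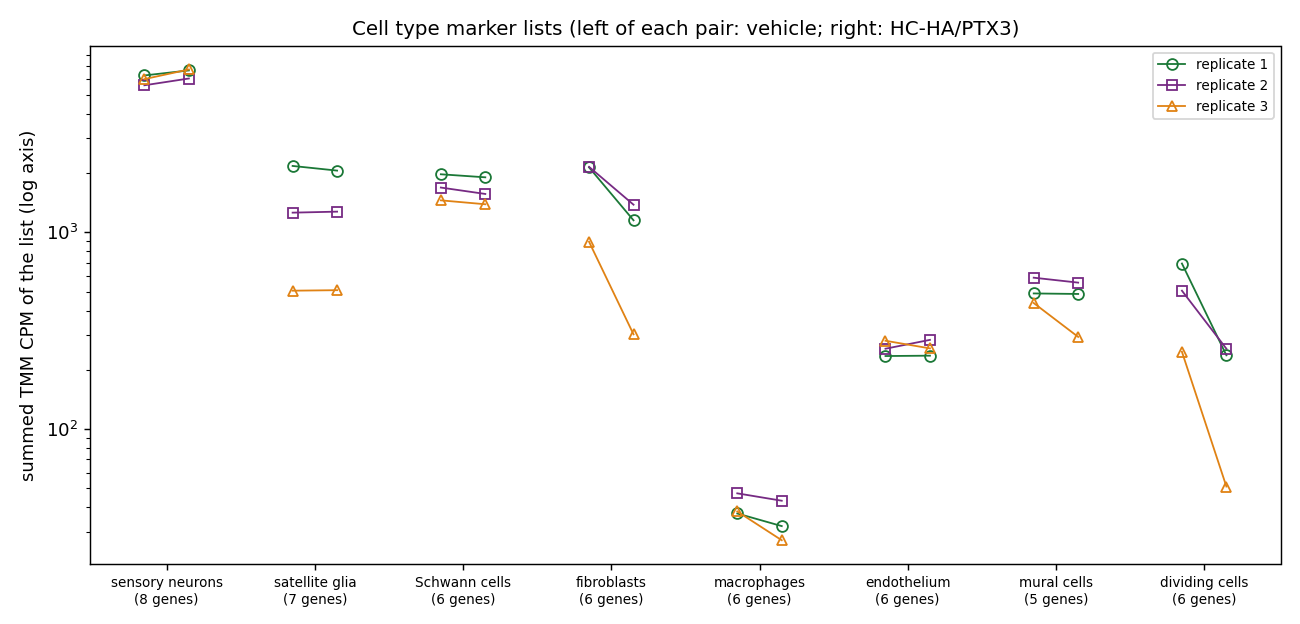
The plot shows the summed TMM CPM (log axis) of the 8 marker lists in each culture, vehicle left and HC-HA/PTX3 right, with lines joining cultures of the same replicate number. The dividing cell sums drop from 694, 505 and 247 to 237, 256 and 51.0, and the satellite glia sums differ mainly between replicate numbers.

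Levels can be compared between genes only per length, here as mean CPM per kilobase (kb) of exon in the vehicle cultures. On this scale the 71 genes ran from 0.0342 for Robo3 to 52.1 for Plxna4, with a median of 3.64. Plxna4, a plexin A that pairs with neuropilin 1, stood at 52.1 ± 3.89 CPM per kb (SD, n = 3), and Plxnd1 at 47.9 ± 12.2, a difference within the spread of Plxnd1. Nrp1, the neuropilin that binds Sema3a, followed with 22.7 ± 0.912 CPM per kb, beside Slit1 with 22.3 ± 2.87, Sema6d with 21.4 ± 1.61, Sema7a with 20.6 ± 4.12 and Sema6a with 20.2 ± 3.03. Those 5 levels do not differ beyond their spreads. Plxna4 and Nrp1, receptor components for Sema3a, were thus among the highest, whereas Sema3a itself stood at 0.193 ± 0.0572 CPM per kb. In CPM, 51 of the 71 genes were above 10 and 7 below 1 in the vehicle mean.

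**Figure D3:**
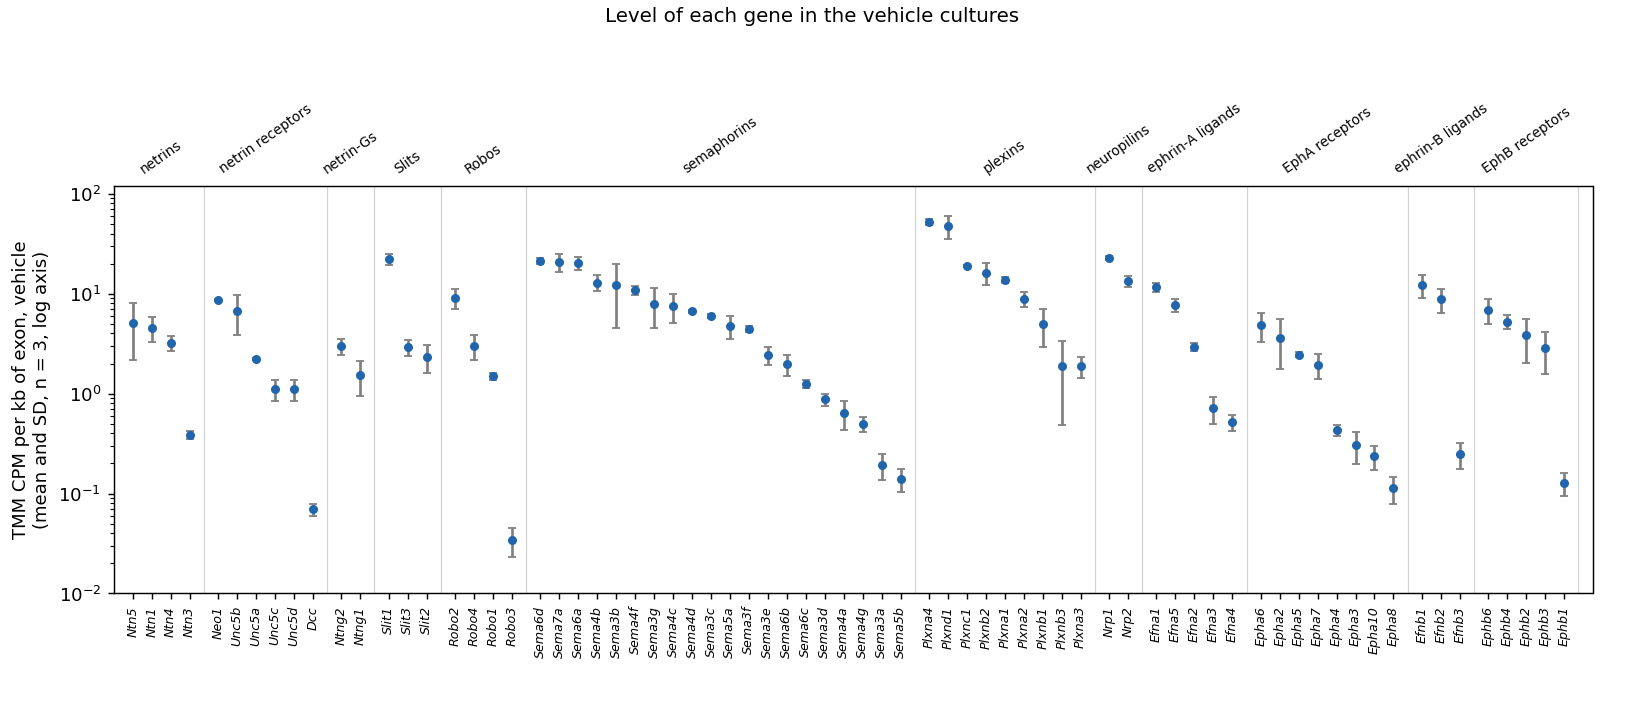
The plot shows the mean TMM CPM per kb of exon in the vehicle cultures (log axis; error bars are the SD, n = 3) for each of the 71 genes by family, in descending order. Plxna4 at 52.1 and Plxnd1 at 47.9 are the highest, and Dcc at 0.0694 and Robo3 at 0.0342 the lowest.

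Of the 6 netrin receptors, 4 fell (66.7%, against 11.5% of all genes tested) and 2, Unc5d and Dcc, did not pass the test. The median log2 fold change was -0.43. Shares by family, here and below, rest on few genes, and their difference from all genes was not tested. Unc5a, a repulsive netrin receptor of neurons, lies on chromosome 13 from 54949411 to 55006018 (mm10, plus strand). Its CPM were 9.16, 9.36 and 9.43 in vehicle replicates 1, 2 and 3 and 5.55, 4.77 and 5.89 in the treated ones. Vehicle and treated cultures did not overlap, and every treated culture lay well below the lowest vehicle culture. Its log2 fold change was -0.79 (SE 0.13, edgeR adjusted p = 0.00273), lower in 3 of 3 pairs.

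Unc5b, a netrin receptor of endothelium as well as neurons, lies on chromosome 10 from 60762593 to 60831581. Its CPM were 26.5, 37.7 and 61.9 in the vehicle cultures and 18.5, 27.8 and 40.9 in the treated ones. Replicate 3 was the highest in both groups and the groups overlapped, but the treated culture was the lower of each pair. The fitted log2 fold change was -0.52 (SE 0.08, edgeR adjusted p = 0.0019). It was close to the threshold, and the call was lost without replicate 3 (-0.46), under upper-quartile scaling (-0.49) and after ComBat-seq (-0.5).

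Unc5c, the third repulsive receptor, lies on chromosome 3 from 141465216 to 141834924. Its CPM were 22.8, 15.5 and 24.6 in the vehicle cultures and 14.7, 11.7 and 18.9 in the treated ones. Replicate 2 was the lowest in both groups, and the groups overlapped. The log2 fold change of -0.47 (SE 0.1, edgeR adjusted p = 0.00847) was below the size needed for a call. Without replicate 1 it was -0.39 and no longer passed the adjusted p, whereas without replicate 2 or replicate 3 it was -0.51 and Unc5c was called.

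Neo1, or neogenin, binds netrins and the repulsive guidance molecules, and lies on chromosome 9 from 58874687 to 59036441. It was at 73.9, 76.3 and 75.4 CPM in the vehicle cultures and 56.5, 58.8 and 58.1 in the treated ones. The replicates of each group lay close together and the groups did not overlap. Neo1 fell by 0.38 on the log2 scale (SE 0.06, edgeR adjusted p = 0.00341), with ratios of -0.39, -0.38 and -0.38 in the 3 pairs, and it passed the adjusted p in all 9 fits that left out a replicate pair or a single culture. A culture left out leaves its partner with no information on the treatment. Fold changes without a single culture therefore nearly repeat those without its pair, and here and below the 9 fits are not 9 separate checks. By level Neo1 was the leading netrin receptor, at 8.63 ± 0.141 CPM per kb in the vehicle cultures, and the next, Unc5b, stood at 6.72 ± 2.89, a difference within the spread of Unc5b.

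Unc5d did not follow the other Unc5 receptors, with 10.9, 12.1 and 7.52 CPM in the vehicle cultures and 13.0, 12.7 and 9.07 in the treated ones, and a log2 fold change of 0.19 (SE 0.11) that did not pass. Dcc, the attractive netrin receptor, was scarce, with 34, 36 and 59 counts in the vehicle libraries and 62, 16 and 57 in the treated ones. Its log2 fold change of 0.27 (SE 0.33) did not pass and was -0.12 without replicate 1, and the ratios of the 3 pairs were 0.98, -0.99 and 0.46. The difference between Unc5d and the other Unc5 receptors was not tested.

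Since Unc5a, Unc5b, Unc5c and Neo1 moved together, their promoters are printed here, each as the 300 bases from 250 before to 50 after the annotated start, from RefSeq on GRCm38.p6 and read 5′ to 3′ on the gene's strand. Capitals mark the GC box word GGGCGG on either strand, a match of letters and not a measured binding site. The windows are chr13:54949161-54949460 (plus) for Unc5a, chr10:60831532-60831831 (minus) for Unc5b, chr3:141465314-141465613 (plus) for Unc5c and chr9:59036392-59036691 (minus) for Neo1.
Unc5a: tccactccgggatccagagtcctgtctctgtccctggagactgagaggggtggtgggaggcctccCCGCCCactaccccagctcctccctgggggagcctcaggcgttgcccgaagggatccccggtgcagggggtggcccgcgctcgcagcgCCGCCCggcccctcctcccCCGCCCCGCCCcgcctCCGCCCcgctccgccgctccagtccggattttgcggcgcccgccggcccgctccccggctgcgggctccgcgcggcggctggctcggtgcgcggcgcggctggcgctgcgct
Unc5b: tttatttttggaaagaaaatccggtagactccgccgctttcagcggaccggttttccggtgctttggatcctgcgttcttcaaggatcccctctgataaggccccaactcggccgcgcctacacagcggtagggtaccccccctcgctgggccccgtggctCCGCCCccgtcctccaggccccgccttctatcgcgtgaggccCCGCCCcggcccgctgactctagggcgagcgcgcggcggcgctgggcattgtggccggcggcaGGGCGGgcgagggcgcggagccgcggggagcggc
Unc5c: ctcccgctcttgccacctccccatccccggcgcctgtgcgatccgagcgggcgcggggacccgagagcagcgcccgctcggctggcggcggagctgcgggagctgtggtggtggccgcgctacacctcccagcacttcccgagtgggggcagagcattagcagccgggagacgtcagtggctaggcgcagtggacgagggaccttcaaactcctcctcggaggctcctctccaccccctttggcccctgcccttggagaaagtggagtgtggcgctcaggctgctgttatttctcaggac
Neo1: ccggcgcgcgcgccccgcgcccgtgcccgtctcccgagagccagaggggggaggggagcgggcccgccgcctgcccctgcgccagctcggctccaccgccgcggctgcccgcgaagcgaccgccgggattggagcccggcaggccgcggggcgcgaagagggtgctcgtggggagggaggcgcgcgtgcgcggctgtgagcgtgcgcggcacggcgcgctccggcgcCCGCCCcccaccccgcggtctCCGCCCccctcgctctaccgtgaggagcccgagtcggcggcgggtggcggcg
The word occurs 5 times in the window of Unc5a, 3 times in that of Unc5b, 0 times in that of Unc5c and 2 times in that of Neo1. The window of Unc5c lies inside the gene as placed above, since GENCODE and RefSeq start the gene at different positions, and no other window was searched for it. The TATA word TATAAA, searched on both strands, is in none of the 4. The 4 windows hold 37, 36, 24 and 54 CpG dinucleotides, in the same order, against a median of 7.0 over all promoters of the table and 20.0 over those of the guidance genes. The GC box word was in 11714 of 32851 promoters (35.7%) and in 54 of the 77 promoters found for 61 guidance genes (70.1%), and TATAAA in 13.6% and 2.60%. The median GC content was 52.7% over all promoters and 64.3% over those of the guidance genes, and its part in these shares was not tested.

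Among the 4 netrins, which are the secreted ligands, Ntn1 fell and the other 3 did not pass. Ntn1 lies on chromosome 11 from 68209364 to 68400823. Its CPM were 31.8, 34.8 and 19.8 in the vehicle cultures and 23.7, 27.1 and 12.0 in the treated ones. Replicate 3 was the lowest in both groups, and the groups overlapped. The log2 fold change of -0.5 (SE 0.1, edgeR adjusted p = 0.0063) lay just under the size needed for a call, and Ntn1 was called in DESeq2 (-0.5), with all counted genes tested (-0.51) and without replicate 1 or 2 (-0.53 and -0.57).

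Ntn4 was at 9.89, 14.2 and 12.1 CPM in the vehicle cultures and 8.84, 13.7 and 4.57 in the treated ones. Its log2 fold change of -0.51 (SE 0.22) did not pass and was -0.09 without replicate 3, whose treated culture was the lowest. Ntn4 was called lower with all counted genes tested (-0.53) and without the treated culture of replicate 2 (-0.78). With all counted genes tested, the edgeR adjusted p of some genes with uneven pairs was far smaller than in the main fit. It was 0.00103 against 0.130 for Ntn4, with pair ratios of -0.16, -0.05 and -1.4, and 2.45e-33 against 0.00873 for Acta2. Passing in that setting, also for Ntn1 above and Plxna1 below, therefore carries little weight. Ntn3 gave -0.06 (SE 0.19) and Ntn5 -0.09 (SE 0.13), the latter 0.02 without replicate 3. Reads of Ntn5 are uncertain, since 23.4% of its exon length overlaps Sec1 on the opposite strand and the strand setting of the counting is not named. The 2 netrin-Gs, membrane-anchored relatives that bind other receptors, stood at 2.97 ± 0.524 (Ntng2) and 1.54 ± 0.6 (Ntng1) CPM per kb in the vehicle cultures, and neither passed the test. Of Ntng2, 14.0% of the exon length overlaps another gene on the same strand.

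Slit2 and Slit3 fell (66.7% of the 3 Slits, against 11.5% of all genes tested). Slit1 did not pass, and its fitted value was above 0. Slits are secreted repellents, and Slit2, on chromosome 5 from 47983138 to 48307733, also promotes branching of sensory axons. Its CPM were 79.5, 45.6 and 52.6 in the vehicle cultures and 56.6, 33.8 and 31.7 in the treated ones. The groups overlapped only because replicate 1 was high in both. Its fitted change on the log2 scale was -0.55 (SE 0.08, edgeR adjusted p = 0.00173), and without replicate 3 it was -0.45, which is no longer a call. Slit3 was at 18.2, 20.6 and 14.3 CPM in the vehicle cultures and 16.0, 15.1 and 8.18 in the treated ones, overlapping, with the treated culture of replicate 3 far below the rest. Its log2 fold change was -0.48 (SE 0.12, edgeR adjusted p = 0.0231), and it did not pass without the pair of replicate 2 (-0.5) or of replicate 3 (-0.3). It was called without replicate 1 (-0.62) and without the treated culture of replicate 2 (-0.5).

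Slit1, the most abundant Slit at 22.3 ± 2.87 CPM per kb, had 144, 139 and 112 CPM in the vehicle cultures and 161, 143 and 143 in the treated ones. The groups overlapped, and its log2 fold change was 0.18 (SE 0.07, edgeR adjusted p = 0.0961). Of the 4 Robo receptors none passed the test in edgeR, with 1, Robo3, at an unadjusted p under 0.05, and their median log2 fold change was 0.15. Robo2, the leading one at 9.11 ± 2.13 CPM per kb, was at 189, 117 and 158 CPM and then 193, 128 and 183. The groups overlapped, and its log2 fold change was 0.12 (SE 0.06). Robo1 gave 0.18 (SE 0.09), and Robo4, a Robo of endothelium, 0.06 (SE 0.11), which turned to -0.01 without replicate 1 or 2. The ligands Slit2 and Slit3 thus fell without a fall in a Robo passing the test.

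Robo3 had 6, 13 and 14 counts in the vehicle libraries and 12, 15 and 30 in the treated ones, or 0.150, 0.303 and 0.250 CPM and then 0.323, 0.396 and 0.762. There was no overlap between the groups, but the log2 fold change of 1.07 (SE 0.39, edgeR adjusted p = 0.0819) did not pass, and it was 0.69 without replicate 3. Of the alternatives that gave it an adjusted p, only ComBat-seq called it. Robo3 and Robo4 are neighbours on chromosome 9, from 37415669 to 37433246 and from 37401897 to 37415115.

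Of the 20 semaphorins, 2 fell (10.0%, against 11.5% of all genes tested), 3 rose (15.0%, against 7.67%) and 15 did not pass. Their median log2 fold change was -0.03. Sema3e, a secreted class 3 semaphorin that signals through plexin D1 without a neuropilin, rose. Its CPM were 26.8, 23.4 and 17.6 in the vehicle cultures and 39.1, 38.8 and 33.2 in the treated ones. The groups did not overlap, and replicate 3 was the lowest in both. The log2 fold change was 0.73 (SE 0.09, edgeR adjusted p = 0.00104), higher in 3 of 3 pairs, and the call held in all 7 settings that kept a pairing or batch term and in all 9 fits with a replicate pair or culture left out.

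The receptor of Sema3e, Plxnd1, went the other way. It lies on chromosome 6 from 115954811 to 115995005 and was at 395, 407 and 248 CPM in the vehicle cultures and 321, 322 and 174 in the treated ones. Replicate 3 was the lowest in both groups, and the groups overlapped. Plxnd1 fell by 0.38 on the log2 scale (SE 0.07, edgeR adjusted p = 0.00393), with ratios of -0.3, -0.34 and -0.51 in the 3 pairs. Ligand and receptor thus passed the test in opposite directions. The promoter of Sema3e, which had the smallest adjusted p of the genes called higher, is printed for comparison with those of the netrin receptors, from the same table, at chr5:14025026-14025325 on the plus strand.
Sema3e: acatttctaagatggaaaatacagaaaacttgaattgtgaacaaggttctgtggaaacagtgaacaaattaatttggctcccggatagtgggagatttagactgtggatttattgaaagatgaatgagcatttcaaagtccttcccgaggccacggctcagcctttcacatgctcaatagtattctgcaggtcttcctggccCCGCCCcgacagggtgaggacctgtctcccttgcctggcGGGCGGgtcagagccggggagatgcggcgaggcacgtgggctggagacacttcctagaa
It holds the GC box word 2 times, as that of Neo1 does, and 11 CpG dinucleotides, a CpG count below those of the 4 netrin receptor promoters above.

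Sema3a, the ligand of Nrp1 with plexin A receptors, was scarce and fell. Its CPM were 2.27, 2.16 and 3.59 in the vehicle cultures and 0.808, 1.95 and 1.63 in the treated ones. Vehicle and treated cultures did not overlap, although replicate 2 differed little between them. The log2 fold change was -0.89 (SE 0.25, edgeR adjusted p = 0.034), and the call was lost without replicate 1 (-0.66) or replicate 3 (-0.72). Sema3a, Sema3c, Sema3d and Sema3e lie together on chromosome 5, from 12383385 at the start of Sema3d to 17730268 at the end of Sema3c. These neighbours did not move together, since Sema3d gave 0.14 (SE 0.12) and Sema3c -0.19 (SE 0.07), neither past the test.

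Sema3c was lower in every treated culture than in any vehicle culture, with 42.8, 40.7 and 44.8 CPM in the vehicle cultures and 37.2, 37.1 and 37.8 in the treated ones, and an edgeR adjusted p of 0.0892. Sema4d, a membrane semaphorin that binds plexin B1, was at 52.4, 49.5 and 52.4 CPM and then 66.6, 56.3 and 70.3. There was no overlap between the groups, and Sema4d rose by 0.32 on the log2 scale (SE 0.07, edgeR adjusted p = 0.0133). Sema4f, of the same class, was at 53.6, 54.7 and 64.6 CPM and then 67.4, 63.3 and 82.4, with overlapping groups, and rose by 0.3 (SE 0.07, edgeR adjusted p = 0.0129). Neither was past the adjusted p without replicate 1 (0.31 and 0.28) or replicate 3 (0.28 and 0.29).

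Sema6a, a membrane semaphorin that binds plexin A receptors, was at 204, 151 and 177 CPM in the vehicle cultures and 161, 133 and 163 in the treated ones. It fell by 0.22 on the log2 scale (SE 0.07, edgeR adjusted p = 0.0428), with overlapping groups, and passed in 0 of the 9 edgeR fits with a pair or culture left out, where it ranged from -0.26 to -0.15. Under upper-quartile scaling (-0.18) and in DESeq2 (-0.22) it did not pass either. Sema6d gave -0.13 (SE 0.06) and Sema7a 0.11 (SE 0.08), neither past the test.

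Of the 9 plexins, Plxnd1 and Plxnb3 fell (22.2%, against 11.5% of all genes tested) and the other 7 did not pass. Plxnb3, a plexin of class B, was at 20.2, 14.7 and 2.21 CPM in the vehicle cultures and 15.8, 10.4 and 1.70 in the treated ones. Replicate 3 was far lower than the others in both groups, so that the difference between replicate numbers exceeded that between treatments. Its log2 fold change was -0.41 (SE 0.11, edgeR adjusted p = 0.0297), and it passed in 2 of the 9 fits with a pair or culture left out, where it ranged from -0.45 to -0.37. Plxnc1, the receptor of Sema7a, was at 161, 158 and 153 CPM and then 185, 171 and 185. The groups did not overlap, but its log2 fold change of 0.2 (SE 0.06, edgeR adjusted p = 0.0519) did not pass. It passed in limma-voom (0.2), after ComBat-seq (0.19), under upper-quartile scaling (0.23), with raw library sizes (0.21) and with 10 counts required in every culture (0.2), and in 0 of the 9 edgeR fits with a pair or culture left out. Plxna4 gave -0.1 (SE 0.07), Plxna1 0.23 (SE 0.07, edgeR adjusted p = 0.0539) and Nrp1 -0.09 (SE 0.06), and Nrp2 did not pass either. Plxna1 passed, as higher, after ComBat-seq (0.21), under upper-quartile scaling (0.26), with raw library sizes (0.24), with all counted genes tested (0.21) and without replicate 2 (0.32).

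Ephrins and Eph receptors signal in both directions at cell contacts, ephrin-As mostly with EphA receptors and ephrin-Bs mostly with EphB receptors. Of the 5 EphB receptors, 2 fell and 3 did not pass (median log2 fold change -0.19), and of the 3 ephrin-B ligands, 1 fell and 2 did not pass. Ephb2, an EphB receptor on chromosome 4 from 136647539 to 136835988, was at 67.0, 54.6 and 22.8 CPM in the vehicle cultures and 37.8, 33.0 and 10.3 in the treated ones. The groups overlapped because replicate 3 was low in both, while the treated culture was the lower of every pair. The fitted log2 fold change was -0.89 (SE 0.09, edgeR adjusted p = 0.000563), and the call held in all 7 settings that kept a pairing or batch term and all 9 fits with a pair or culture left out.

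Ephb1, a second EphB receptor, had only 46, 33 and 42 counts in the vehicle libraries and 15, 18 and 17 in the treated ones. That is 1.15, 0.768 and 0.750 CPM and then 0.404, 0.475 and 0.432, with no overlap between the groups. Its fitted change on the log2 scale was -1.0 (SE 0.3, edgeR adjusted p = 0.0445). The call was lost under upper-quartile scaling (-0.96) and without the pair of replicate 1, 2 or 3 (-0.74, -1.15 and -1.08). DESeq2 gave no adjusted p for Ephb1. The other 3 EphB receptors also had fitted values below 0, Ephb4 at -0.19 (SE 0.11), Ephb3 at -0.13 (SE 0.1) and Ephb6 at -0.06 (SE 0.1), though Ephb6 turned to 0.06 without replicate 2 and Ephb4 was -0.02 without the vehicle culture of replicate 3 and nearer 0 without the pair, and none of them passed.

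Efnb1, an ephrin-B ligand on chromosome X from 99136130 to 99148991, was at 49.4, 47.7 and 29.6 CPM in the vehicle cultures and 37.9, 32.7 and 20.7 in the treated ones. Replicate 3 was again the lowest in both groups, and the groups overlapped. Efnb1 fell by 0.48 on the log2 scale (SE 0.08, edgeR adjusted p = 0.00273) and passed the adjusted p in all 9 fits with a pair or culture left out, and without replicate 1 it was called (-0.53). Efnb2 was at 46.7, 56.2 and 77.2 CPM and then 41.8, 50.8 and 68.8, with a log2 fold change of -0.16 (SE 0.07) that did not pass, and Efnb3 was scarce at 0.248 ± 0.0711 CPM per kb.

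On the A side, 1 of 5 ephrin-A ligands rose, and of 8 EphA receptors 1 rose and 1 fell, while the others did not pass. Efna1, a membrane-anchored ephrin-A ligand on chromosome 3 from 89271733 to 89281142, was at 20.2, 20.0 and 23.8 CPM in the vehicle cultures and 30.4, 25.2 and 36.8 in the treated ones. Vehicle and treated cultures did not overlap, and the lowest treated culture, replicate 2, was only slightly above the highest vehicle culture. Efna1 rose by 0.52 on the log2 scale (SE 0.09, edgeR adjusted p = 0.00403), and its size was under the threshold without replicate 1 (0.48) or replicate 3 (0.48), after ComBat-seq (0.5) and with all counted genes tested (0.5). The neighbouring ephrin-A genes Efna3 and Efna4 on the same chromosome did not pass the test, nor did Efna2 and Efna5, the latter at 7.7 ± 1.19 CPM per kb in the vehicle cultures.

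Epha10, an EphA receptor whose kinase domain is thought to be inactive, had 1.55, 1.33 and 2.20 CPM in the vehicle cultures and 3.23, 1.82 and 3.05 in the treated ones. The groups overlapped through replicate 2 of the treated cultures. It rose by 0.66 on the log2 scale (SE 0.2, edgeR adjusted p = 0.0418), but the call was lost in DESeq2 (0.66) and without replicate 1 (0.46) or replicate 2 (0.74). Epha2, a receptor of Efna1, was at 8.99, 15.6 and 26.5 CPM and then 8.00, 12.3 and 17.2. Replicate 3 was the highest in both groups. Epha2 fell by 0.39 on the log2 scale (SE 0.11, edgeR adjusted p = 0.0364), but passed the adjusted p in 0 of the 9 edgeR fits with a pair or culture left out, where it ranged from -0.49 to -0.25, and neither under upper-quartile scaling (-0.36) nor with raw library sizes (-0.38). By level, Epha6 led the EphA receptors with 4.83 ± 1.52 CPM per kb, within the spread of Epha2 with 3.64 ± 1.89, and Epha5 followed with 2.46 ± 0.132.

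**Figure D4:**
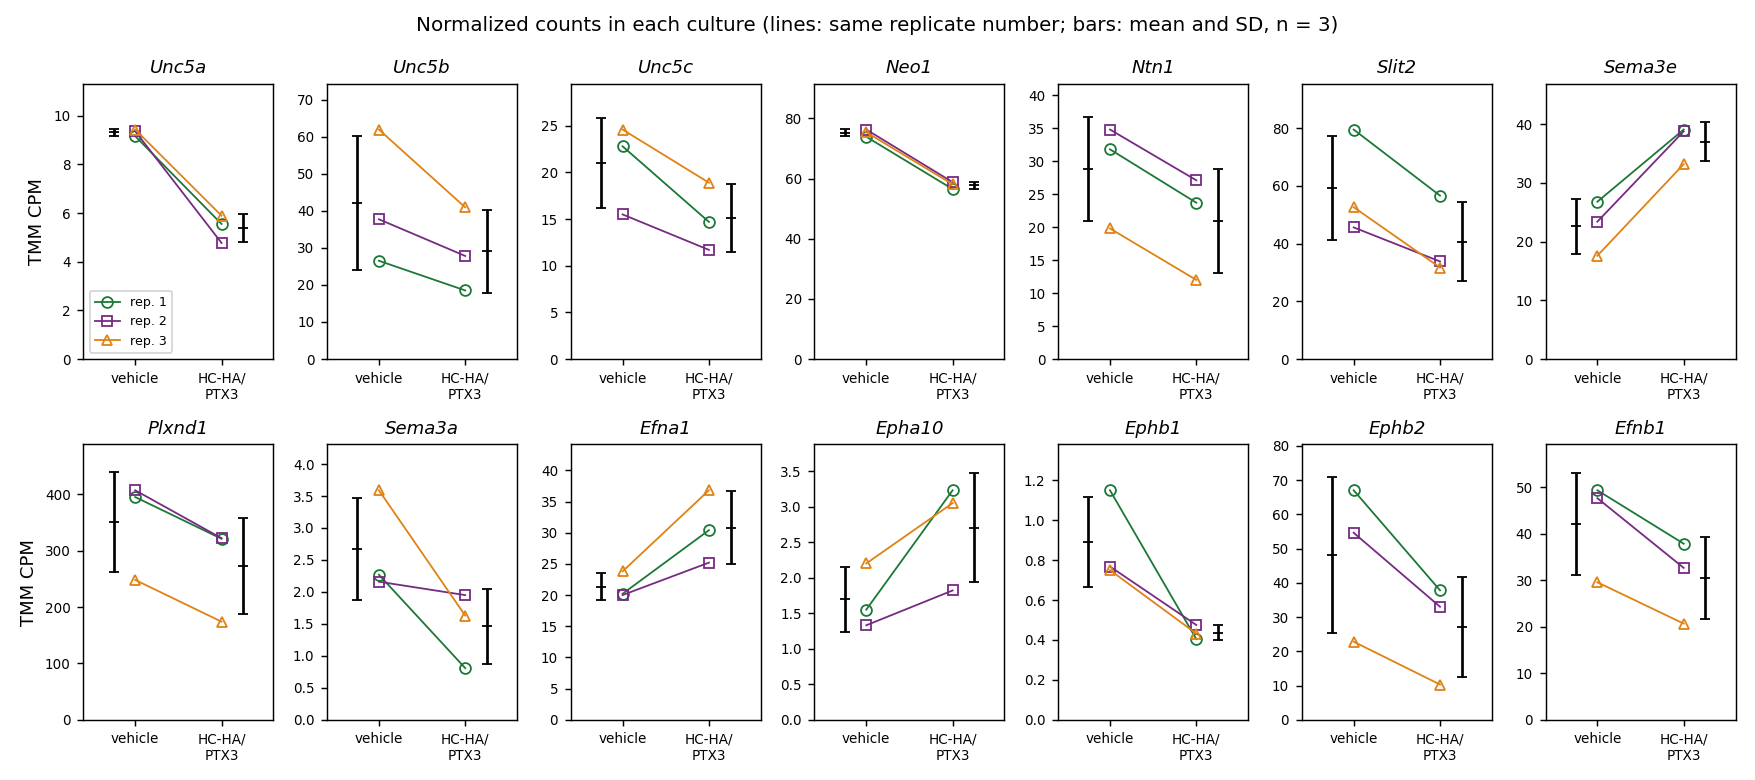
The plot shows TMM CPM of 14 guidance genes in each culture, with lines joining vehicle and HC-HA/PTX3 cultures of the same replicate number and the mean and SD (n = 3) of each group beside them. Unc5a drops from 9.16 to 9.43 CPM in the vehicle cultures to 4.77 to 5.89 in the treated ones, and Sema3e rises in every pair.

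Some guidance genes differed more between replicate numbers than between treatments. Replicate 3 was below replicate 1 by more than 1 on the log2 scale in both groups for 6 of the 71 genes, Sema3b, Sema3g, Ephb2, Ephb3, Ntn5 and Plxnb3, and above it by more than 1 for 2, Unc5b and Epha2. These 8 were singled out after their values were seen, by the size of the difference, and are not all such genes. For Plxnd1 replicate 3 over replicate 1 was -0.67 (vehicle) and -0.88 (treated), larger than its treatment change of -0.38. The same held for Efnb1 (-0.74 and -0.87), Ntn1 (-0.69 and -0.99) and Slit2 (-0.6 and -0.84), but not for Unc5a (0.04 and 0.09) or Neo1 (0.03 and 0.04). The sums for satellite glia, fibroblasts, Schwann cells, mural cells and dividing cells were also lowest in replicate 3 in both groups, and their part in these 8 genes was not tested.

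Of 23 extracellular partners of these families, 5 fell (21.7%, against 11.5% of all genes tested), 2 rose (8.70%, against 7.67%) and 16 did not pass, and 1 was called, lower (4.35%, against 5.38%). This was Draxin, a secreted repellent that binds netrin receptors, with 6.34, 8.50 and 10.4 CPM in the vehicle cultures and 2.75, 3.46 and 5.00 in the treated ones. There was no overlap between the groups, and its log2 fold change was -1.18 (SE 0.13, edgeR adjusted p = 0.000824). Rgma, a ligand of neogenin, was also among those that fell, and Rgmb, its relative, among those that rose. Rgma did not pass without replicate 1 (-0.32) or replicate 3 (-0.37) and was called without replicate 2 (-0.69). It did not pass after ComBat-seq (-0.4), under upper-quartile scaling (-0.43) or with raw library sizes (-0.45) either. Rgmb did not pass without replicate 2 (0.25) or replicate 3 (0.2). Of 48 cytoplasmic effectors, such as collapsin response mediators, 0 were called in edgeR, 6 fell, 3 rose and 39 did not pass, and the 18.8% that passed in either direction is close to the 19.2% of all genes tested. Limk1, a kinase of cofilin, had the largest of the 3 rises, at 0.44 on the log2 scale (edgeR adjusted p = 0.0047), with 112, 115 and 111 CPM in the vehicle cultures and 169, 133 and 160.3 in the treated ones, without overlap. Without replicate 2 Limk1 was called (0.55). It was named after its values were seen.

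Of the 20 genes that passed the adjusted p, 10 did so in all 9 fits with a pair or culture left out: Unc5a, Unc5b, Neo1, Ntn1, Slit2, Ephb2, Efnb1 and Plxnd1, lower, and Sema3e and Efna1, higher. These fits largely repeat one another, as described for Neo1. After ComBat-seq with limma-trend, beside Plxna1, Plxnc1 and Robo3, others that did not pass in edgeR passed at fold changes under the threshold, among them Efnb2, Sema3c and Sema6d, lower, and Robo2, Slit1 and Unc5d, higher. Reads shared with overlapping genes are a limit of small size for the named genes that were called, with 0.816% of the exon length of Unc5a shared with Hk3, 1.10% of Epha10 and 2.17% of Ephb1 with transcripts on the opposite strand. The measurements are RNA levels, and protein was not analysed here.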

How the data were processed

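The authors deposited raw read counts, 1 whole number per gene and culture, made with featureCounts on mm10. Their methods name HISAT2 as the aligner, whereas the file headers name STAR, and the strand setting is not named. Groups and replicate numbers came from the labels. Counts were compared in R 4.3.3 with edgeR 4.0.16 (TMM, filterByExpr, glmQLFit, glmQLFTest) on the replicate number and the treatment, because the methods state a batch term and the labels list no batch. P-values were adjusted by Benjamini-Hochberg over the 18277 of 35976 genes that passed the filter. The pairing was checked across genes. The departure of a culture from the mean of its group correlated with that of the culture of the same number at 0.631, 0.536 and 0.774, and with the others at -0.613 to 0.148.

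No libraries within a group were duplicates, and vehicle libraries were not checked against treated ones for this. Exon lengths and positions were those of GENCODE M21, matched by symbol, and promoters those of RefSeq. Named are the called genes, the 3 most abundant per family, genes with groups apart and large changes, their partners, and Ephb1. The members and lists were chosen with earlier results of these data known. The alternatives were a fit without the block, DESeq2 1.42.0, limma-voom (limma 3.58.1), ComBat-seq with limma-trend (sva 3.50.0), other scalings and filters, no fold threshold, and each pair or culture left out. The comparison columns of the study's supplement were not used.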

Additional observations from a re-analysis of the deposited data

How the results depend on the processing

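Without the replicate block, edgeR called 0 genes, 0 of the guidance genes lower and 0 higher. Without the fold-change threshold, it called 3505 genes, with 15 guidance genes lower and 5 higher. With a pair or culture left out, it called 878 to 2010 genes, with 3 to 10 guidance genes lower and 1 to 2 higher. The counts with fewer cultures rest on fewer samples, and leaving out a single culture left its partner with no information on the treatment. The fits without a culture are thus not checks separate from those without its pair. For the fit without the block, the cause was not tested. Under every other setting the total of called genes and both counts of guidance genes stayed within 1.5 times those of the main comparison, but all genes called higher went from 607 to 360 in DESeq2 and 1012 after ComBat-seq, and the 9 called genes kept their sign in all 17 fits. Of 861 comparisons for 51 genes, 758 kept their direction and their side of the threshold, 59 lost a call, 30 gained one and 14 reversed. The reversals were in 4 genes that were not called. The log2 fold change with a pair or culture left out ranged from -0.12 to 0.7 for Dcc, -0.13 to 0.06 for Ephb6, -0.26 to 0.02 for Ntn5 and -0.02 to 0.21 for Robo4. Robo3, Ephb1, Epha8 and Dcc rest on 6 to 62 counts per library.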
